A study of Mus musculus with 8 samples.

Results

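The 9 genes described here, Id1, Id2, Id3, Id4, Msx1, Msx2, Dlx3, Dlx5 and Hand1, are targets of bone morphogenetic protein (BMP) signalling. They were chosen by name as known BMP targets, with earlier results of these data already known, and stand among the 21900 protein-coding genes of the RefSeq annotation of GRCm38. The data are the places where ZGLP1, a nuclear protein with GATA-like zinc fingers, was found on the mouse genome by chromatin immunoprecipitation and sequencing (ChIP-seq) with an antibody against a V5 tag. The study's title ties ZGLP1 to the oogenic fate. All 8 libraries came from C57BL/6 x DBA2 cells that overexpressed V5-tagged Zglp1 under doxycycline (Dox), and no group without the transgene is among them. Embryonic stem cells (ESCs) can be turned in culture into cells that resemble primordial germ cells, called PGCLCs. PGCLCs gave a ChIP library on culture day 7 (c7) and on day 8 (c8) after Dox alone, and on each of those days after Dox with retinoic acid (RA), with treatment from day 3. PGCLCs were sorted as SC+ and mCherry+. ESCs, sorted as mCherry+, gave a ChIP library after 24 h of Dox and RA, so that there were 5 ChIP libraries in all, each from the same number of cells. The 3 input libraries, of unprecipitated chromatin, came from c8 PGCLCs under each treatment and from ESCs. The medium that induced PGCLCs contained BMP4, which all PGCLC groups share. The labels name 2 ESC lines, H18 BVSC and BDF1-2-1 BVSC, without saying which gave which library.

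The deposited values are the positions of 32927 peak summits, the single bases at which the authors placed each peak's maximum. No column gives a library or a height. The groups, each of 1 library, therefore cannot be compared, and read depth is unknown. Expression was not measured here, so the identity of the cells and the activity of the 9 genes were not examined. Where no summit is listed, binding may still have occurred below the cutoff used by the authors.

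BMP ligands bind paired serine/threonine kinase receptors, which phosphorylate SMAD1, SMAD5 and SMAD9. These enter the nucleus with SMAD4 and bind GC-rich elements and the shorter SMAD box GTCT in target genes. Id1, Id2, Id3 and Id4 are the best known direct targets. Their proteins have a helix-loop-helix but no DNA-binding region, and hold E proteins (TCF3, TCF4, TCF12) in inactive pairs. BMP signals are also what induces primordial germ cells in the mouse epiblast.

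RefSeq start windows were found for 5 of the 9 genes, Id2, Id3, Id4, Msx1 and Msx2, and not for Id1, Dlx3, Dlx5 and Hand1. They are printed to show the sequence at each start, beside which the places of the summits are given. Each window holds the 250 bases before the start and the first 30 after it, 5′ to 3′ on the strand of the gene, on GRCm38.p6. Capitals mark the SMAD-type hexamers, which are the palindrome GGCGCC, its variant form GGCGTC and the related form GGAGCC. They also mark the core of the GATA motif, the letters GATA, and all were searched on both strands. The windows are chr12:25096063-25096342 (minus strand) for Id2, chr4:136143572-136143851 (plus) for Id3, chr13:48260866-48261145 (plus) for Id4, chr5:37824556-37824835 (minus) for Msx1 and chr13:53472751-53473030 (minus) for Msx2.
Id2: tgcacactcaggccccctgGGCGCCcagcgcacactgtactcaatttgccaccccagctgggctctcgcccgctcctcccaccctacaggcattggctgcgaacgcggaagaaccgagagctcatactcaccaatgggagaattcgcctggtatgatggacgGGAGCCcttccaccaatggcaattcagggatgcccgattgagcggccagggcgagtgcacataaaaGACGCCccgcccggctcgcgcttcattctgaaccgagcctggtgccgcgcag
Id3: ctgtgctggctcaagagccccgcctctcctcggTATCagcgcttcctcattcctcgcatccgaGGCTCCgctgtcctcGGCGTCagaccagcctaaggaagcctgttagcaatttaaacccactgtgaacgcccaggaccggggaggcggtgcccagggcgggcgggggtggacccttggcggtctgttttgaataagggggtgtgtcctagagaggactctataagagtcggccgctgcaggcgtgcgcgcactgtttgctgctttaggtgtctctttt
Id4: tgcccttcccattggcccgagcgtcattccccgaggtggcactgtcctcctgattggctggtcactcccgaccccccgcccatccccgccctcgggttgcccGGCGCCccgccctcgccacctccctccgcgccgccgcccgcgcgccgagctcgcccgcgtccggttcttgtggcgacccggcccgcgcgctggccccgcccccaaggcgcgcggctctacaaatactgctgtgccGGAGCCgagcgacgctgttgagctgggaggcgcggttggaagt
Msx1: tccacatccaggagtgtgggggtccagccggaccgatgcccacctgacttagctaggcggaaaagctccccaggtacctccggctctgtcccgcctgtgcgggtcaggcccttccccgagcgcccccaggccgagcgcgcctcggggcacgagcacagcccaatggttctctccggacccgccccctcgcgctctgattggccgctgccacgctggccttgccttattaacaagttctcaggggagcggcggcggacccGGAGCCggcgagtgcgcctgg
Msx2: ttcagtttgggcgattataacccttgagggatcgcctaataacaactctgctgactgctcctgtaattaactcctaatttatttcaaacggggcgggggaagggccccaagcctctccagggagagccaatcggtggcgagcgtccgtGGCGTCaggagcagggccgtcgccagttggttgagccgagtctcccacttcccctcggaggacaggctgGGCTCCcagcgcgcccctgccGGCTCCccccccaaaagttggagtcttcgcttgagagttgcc

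In 3 of these 5 genes a summit lay within the window. The transcript begins right after base 250. The summit of Id2 lay at base 167, 84 bases before the start. That of Id4 lay at base 170, 81 bases before the start. In Id3 the summit was at base 273, 22 bases past the start. Within 10 kb of these 5 genes, 6 of 19 summits lay within 1 kb of the start. A matching share over all protein-coding genes is not given here, so whether this count is high cannot be told. Over the 21263 windows of protein-coding genes, the closest summit also often lay near the start. In 2270 windows it lay up to 100 bases before the start, and in 2521 up to 100 bases past it. The closest summit of Msx2 lay 80 bases past its start and that of Msx1 395 bases past it, both in the gene and beyond the printed bases. Of all 32851 windows of 300 bases in the RefSeq table, which run to 50 bases after the start, 18.8% held a summit, and of the 21263 windows of protein-coding genes 25.2%. The 5 windows were rich in CG dinucleotides, with 17 in Msx2, 19 in Id3, 21 in Id2, 26 in Msx1 and 38 in Id4, where the median window had 6. Among the 9394 windows with at least 17 CG dinucleotides, 47.2% held a summit.

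**Figure D1:**
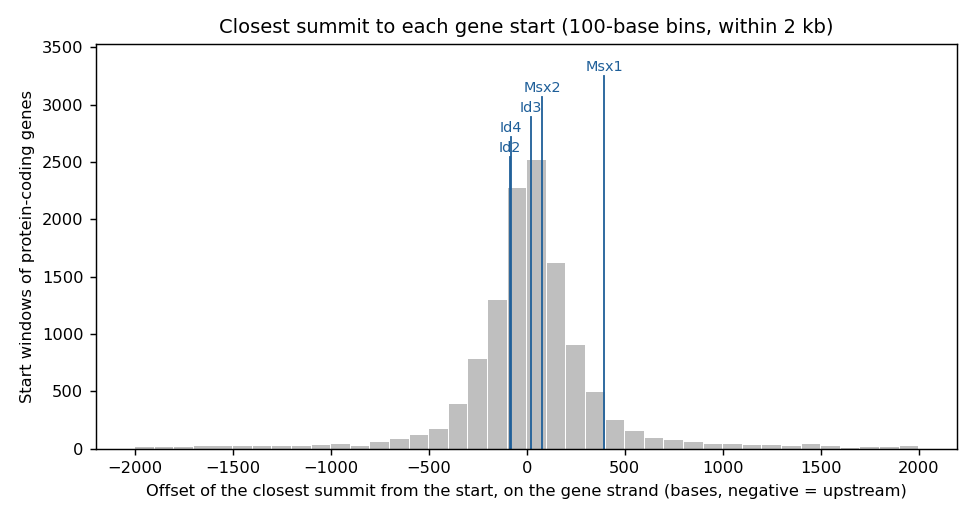
Closest summit to the start for all windows of protein-coding genes (grey bars, 100-base bins, within 2 kb) and for the 5 genes with a start window (blue lines). The horizontal axis is the offset on the strand of the gene in bases and the vertical axis the number of windows. Id2, Id4, Id3 and Msx2 lie in the 2 tallest bins, and Msx1 lies at 395 bases.

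The core GATA was present in 1 of the 5 windows, as TATC 217 bases before the start of Id3, and in 56.3% of all windows of the same 280 bases. The longer forms AGATAA and TGATAA, which contain it, were in none of the 5 and in 17.9% of all. A SMAD-type hexamer was present in all 5 windows, with 3 matches in Id2, 2 in Id3, 2 in Id4, 1 in Msx1 and 3 in Msx2, against 39.6% of all windows. In Id2 the GGAGCC that starts at base 163 covers the base of the summit. The hexamers are themselves GC-rich and stand in windows with more CG dinucleotides than the median, and the part of base composition in their share was not tested. The SMAD box GTCT, which can overlap GGCGTC, was in 3 of the 5 windows and 86.2% of all. The E-box CANNTG was in 3 of 5 and 70.1% of all, and its form CACGTG in 0 of 5 and 6.79%. These are matches of letters in a window and not measured sites.

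Counted with their flanks, 8 of the 9 genes had a summit within 10 kb of their start or end, against 66.6% of protein-coding genes. Within 50 kb all 9 had one, against 78.0%, and 5 of the 9 had one inside the gene, against 54.5%. The median was 3 summits within 10 kb where the median protein-coding gene had 1, and 6 within 50 kb where it had 3. The 9 genes are short, from 1160 to 5900 bases. Of the 3767 protein-coding genes in that range, 39.1% had a summit inside, 59.1% within 10 kb and 72.7% within 50 kb. At least 2 summits within 10 kb were found for 7 of the 9, against 44.1% of protein-coding genes. These shares are descriptions of 1 list, with no test across samples.

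The 26 summits within 10 kb of the 9 genes and the 55 within 50 kb were all distinct, as no window overlapped another. Of the 26, 7 lay inside the genes and 0 inside another protein-coding gene. The nearest other protein-coding gene stood 9831 to 214735 bases from each of the 9. Few places within 10 kb could therefore lie in one. The span of a lncRNA (a long noncoding RNA gene) held 11, some of them also inside the genes, and 11 lay outside every annotated span. For 25 of the 26 the gene itself was the nearest protein-coding gene, a count that the same gaps largely set. Matching shares over all genes are not given here for these counts. Of the 55, the gene itself was nearest for 36, and 14 lay inside another protein-coding gene. In the wide window the gene itself was nearest for 2 of 6 summits at Hand1, 3 of 8 at Id1, 5 of 10 at Dlx3, 1 of 2 at Dlx5 and 7 of 11 at Id3, and for all those at Id2, Id4, Msx1 and Msx2.

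**Figure D2:**
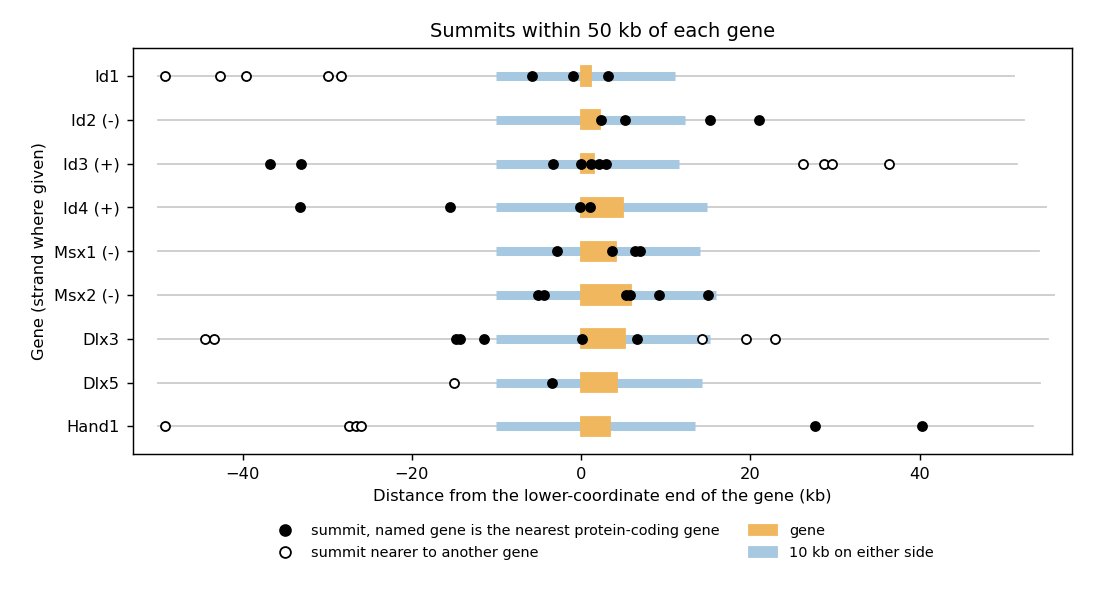
Summits within 50 kb of each gene (circles), by distance in kb from the end with the lower coordinate; orange marks the gene, blue the 10 kb on either side, and the sign after a name its strand. Open circles are summits nearer to another protein-coding gene. Msx2 holds all 6 of its summits within 10 kb, and Hand1 has none there.

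The Id genes all had a summit within 1 kb of an end, 4 of 4, where 52.9% of protein-coding genes had one. Together they held 12 summits within 10 kb and 27 within 50 kb. They differed in where these lay, from the flanks alone in Id1 and Id2 to a run across the whole gene in Id3.

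Id1 (chromosome 2, 152736251 to 152737410) is the shortest of the 9 and had no summit inside. Its 3 summits within 10 kb lay 5784 and 987 bases below its lower end, at 152730467 and 152735264, and 2065 bases above its upper end, at 152739475. All 3 fell outside every annotated gene span. A count of 3 or more within 10 kb was found for 25.8% of protein-coding genes. The other 5 of its 8 summits within 50 kb, from 28426 to 49140 bases below the gene, all lay inside H13, which encodes an intramembrane protease of the endoplasmic reticulum.

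Id2 (chromosome 12, 25093799 to 25096092, minus strand) had 4 summits within 50 kb, and all of them lay upstream of its start. They stood 84, 2849, 12915 and 18713 bases before it, the first and second within 10 kb. Counts at least as high were found for 44.1% of protein-coding genes within 10 kb and 46.8% within 50 kb. The gene and its downstream side held none. Of 5178 protein-coding genes with 1 start window and a summit inside or within 10 kb, 14.5% had summits on the upstream side only. These genes are of all lengths, so the share is not matched to Id2, a gene of 2294 bases. For all 4 summits Id2 was the nearest protein-coding gene, with Kidins220 the next, at a gap of 30647 bases from Id2.

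Id3 (chromosome 4, 136143822 to 136145392, plus strand) had the most summits of the Id genes, 5 within 10 kb and 11 within 50 kb. A summit 22 bases past the start, at 136143844, was followed by one inside the gene at 136144959, and by 2 past its end, at 136145897 and 136146804. Neighbours in this run of 4 stood 1115, 938 and 907 bases apart. The remaining one lay 3350 bases upstream, inside the lncRNA Gm42329. With 3 summits within 1 kb of an end, Id3 stood in the 2.57% of protein-coding genes with as many, and with 5 within 10 kb in the 7.86%. Farther out, 2 summits lay 33095 and 36799 bases upstream with Id3 as the nearest protein-coding gene. The 4 on the other side, from 24678 to 34867 bases past the gene, were nearer to E2f2, a cell cycle transcription factor gene, and 3 of them lay inside it.

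Id4 (chromosome 13, 48261116 to 48266028, plus strand) is the most isolated of the 9, with Zfp169 the nearest protein-coding gene at a gap of 214735 bases. Its 2 summits within 10 kb lay 81 bases before the start and 1075 bases past it. Another 2 lay 15520 and 33261 bases upstream, and no summit lay downstream of the gene within 50 kb. All 4 were inside the annotated span of the lncRNA A330033J07Rik, which also covers the start of Id4. At least 2 summits within 10 kb were found for 44.1% of protein-coding genes, and at least 4 within 50 kb for 46.8%. The gene table gives no exons, so places inside a gene are not divided into exons and introns here.

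Msx1 and Msx2 encode homeodomain proteins that mostly repress transcription and act downstream of BMP in limb, tooth and skull. They had 4 and 6 summits within 10 kb, and none beyond that within 50 kb. Both had one close to the start and others on each side of the gene.

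Msx1 (chromosome 5, 37820491 to 37824585, minus strand) had a summit 395 bases past its start, at 37824190. A pair lay upstream, 2253 and 2875 bases before the start and 622 bases apart, inside the lncRNA Gm33993. The last lay 2893 bases past the end of the gene, at 37817598. A count of 4 or more within 10 kb was found for 14.3% of protein-coding genes. Within 50 kb, where Msx1 had the same 4, 46.8% had at least as many. The nearest protein-coding gene, Cytl1, was 80671 bases away.

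Msx2 (chromosome 13, 53466881 to 53472780, minus strand) had the most summits within 10 kb, 6, a number reached by 4.12% of protein-coding genes. Within 50 kb, where Msx2 had the same 6, 30.7% had at least as many. The summits inside the gene lay 80 and 645 bases past the start, 565 bases apart. Upstream summits stood 3333 and 9090 bases before the start. A pair 747 bases apart lay past the end of the gene, by 4337 and 5084 bases. The lncRNA Gm33763 spans the whole set. Msx2 was the nearest protein-coding gene for all 6, with Gm38564 at a gap of 47536 bases.

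On the 5 genes with a known strand, 8 of the 19 summits within 10 kb lay upstream (42.1%), 6 inside (31.6%) and 5 downstream (26.3%). Over 9204 protein-coding genes with 1 start window, these shares were 33.2%, 42.8% and 24.0% of 13386 summits counted in the same way. Long genes offer more room inside, which also lowers their upstream and downstream shares, since the shares add up to the whole. None of the shares is therefore matched for length, and a lean to either side was not tested.

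Dlx3 and Dlx5 encode homeodomain activators of skin, skeleton and placenta (Dlx3) and of bone and forebrain (Dlx5), and each lies beside a paralogue. Dlx3 (chromosome 11, 95120117 to 95125296) had 3 summits within 10 kb. They lay 64 bases inside its lower end, at 95120181, and 1454 and 9120 bases above its upper end. The last was nearer to Dlx4, whose lower end was 6031 bases away. Within 50 kb Dlx3 had 10 summits, a count reached by 12.8% of protein-coding genes. A group of 3 lay 11489, 14262 and 14805 bases below the gene, outside every annotated span and with Dlx3 as the nearest gene. Of the other 4, 2 were inside Itga3, an integrin gene, 1 was inside Dlx4 and 1 was 868 bases from Dlx4.

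Dlx5 (chromosome 6, 6877801 to 6882068) had 1 summit within 10 kb and 2 within 50 kb, the lowest count of the 9 in the wide window. The first, at 6874331, lay 3470 bases below the gene, in the interval of 9831 bases that separates it from Dlx6, and outside every annotated span. The second, at 6862773, was 15028 bases away and 561 bases below the lower end of Dlx6, inside the lncRNA Dlx6os1. Neither end of Dlx5 had a summit within 1 kb. The pair is shared, since Dlx6 had the same 2 summits within 10 kb.

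Hand1, a basic helix-loop-helix factor of heart, trophoblast and extraembryonic mesoderm, was the only one of the 9 with no summit within 10 kb (chromosome 11, 57828713 to 57832147). Its closest summit lay 24190 bases above the gene. For that one and for another 36863 bases above, Hand1 was the nearest protein-coding gene. The other 4 of its 6 summits within 50 kb, from 26020 to 49157 bases below it, belonged by distance to Sap30l, of a histone deacetylase complex, or lay inside Galnt10, a glycosyltransferase gene. Its paralogue Hand2 had a summit inside, 1068 bases from one end.

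In the order of counts within 10 kb, Msx2 with 6 was followed by Id3 with 5, Msx1 with 4, Id1 and Dlx3 with 3 each, Id2 and Id4 with 2 each, Dlx5 with 1 and Hand1 with 0. Without replicates no spread is known for these counts, so whether neighbours in this order differ beyond their error cannot be told. Within 50 kb the order was another, led by Id3 with 11, Dlx3 with 10 and Id1 with 8, and for each of these another protein-coding gene was nearest to at least 4 of the summits. Among the 46 neighbouring pairs of summits within these windows, 9 were under 1 kb apart (19.6%), against 15.5% of 32905 pairs over the whole list. Gaps that cross a window edge are left out of the 46 but not of the whole list. This favours short gaps in the 46, so the shares are not matched. The closest pair, 543 bases apart, was that below Dlx3.

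**Figure D3:**
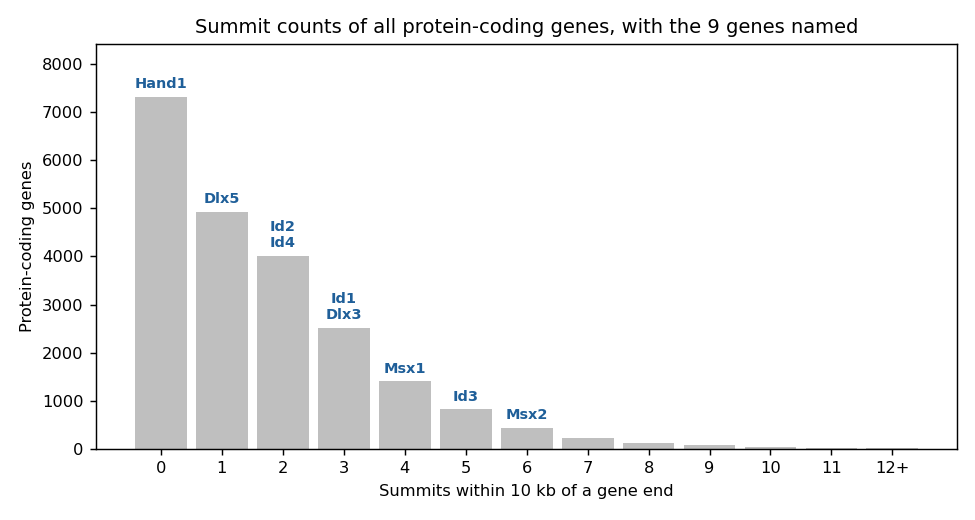
Number of protein-coding genes (vertical axis) by summits within 10 kb of either end (horizontal axis, the last bar pooling 12 and more), with the 9 genes named above their bar. Hand1 stands at 0, Dlx5 at 1, and Msx2, with 6, is the highest of the 9.

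The paralogues and partners of the 9 genes were counted beside them, with lists chosen for their known roles. All 6 paralogues had a summit within 10 kb, against 66.6% of protein-coding genes. Msx3 had 4, the closest 242 bases from an end, Dlx2 had 3 (297 bases), Dlx4 had 3 (868 bases), Dlx6 had 2 (561 bases), and Dlx1 (1171 bases) and Hand2 had 1 each. The Dlx genes lie in pairs, so their windows overlap. The E proteins that Id proteins bind had summits in 3 of 3 cases, against the same 66.6%. Tcf3 had 5 within 10 kb (closest 60 bases), Tcf4 had 3 (919 bases) and Tcf12 had 2 (59 bases). These 3 genes are longer than any of the 9, from 24436 bases in Tcf3 to 344539 bases in Tcf4.

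Of the 55 other BMP pathway genes, 47 (85.5%) had a summit within 10 kb of an end and 51 (92.7%) within 50 kb. This stands beside 8 and 9 of the 9 target genes, and 66.6% and 78.0% of protein-coding genes. Their median was 2 summits within 10 kb. Among the ligands, 8 of 11 (72.7%) had a summit within 10 kb, closest in Bmp7 (117 bases), Gdf6 (130 bases) and Gdf5 (221 bases). Bmp5, Gdf2 and Bmp2 had none within 50 kb, and the closest summit to Bmp2 was 606562 bases away. Bmp4, the ligand of the induction medium, had 9 within 10 kb, the closest 1257 bases from an end, a gene named after its values were seen.

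All 8 receptors had a summit within 10 kb, against 66.6% of protein-coding genes, led by Acvr1 (154 bases), Bmpr1a (222 bases) and Bmpr1b (267 bases). Most receptors, transducers and intracellular inhibitors are longer than the 9 genes, up to 332451 bases in Bmpr1b, and their shares are not matched for length. So did the 4 SMAD transducers, with Smad1 at 92 bases, Smad4 at 148 bases and Smad5 at 665 bases. The 8 intracellular inhibitors all had one, with a median of 3 per gene and the closest in Smurf1 (136 bases), Smad6 (143 bases) and Smurf2 (233 bases). Smad6 and Smad7, the inhibitory SMADs that BMP signals also induce, had 9 and 11 within 10 kb, above every one of the 9 genes. Smad7 was named after its values were seen. They span 69010 and 28571 bases and had 9 and 10 summits inside. In genes this long more bases lie within 10 kb of an end than in the 9, so these counts are not matched for length.

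Of the secreted antagonists, 6 of 9 (66.7%) had a summit within 10 kb, beside 66.6% of all protein-coding genes, with Grem1 (21 bases), Bmper (112 bases) and Twsg1 (123 bases) closest. Of 15 further BMP-responsive genes, most of them transcription factors, 13 had one (86.7%), with a median of 3, as in the 9 genes. Tbx20 (60 bases), Tbx2 (98 bases) and Hey1 (115 bases) were closest, and T and Runx2, named after their values were seen, had none within 10 kb of an end. Runx2, a gene of 318811 bases, had 3 inside, farther than that from either end.

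**Figure D4:**
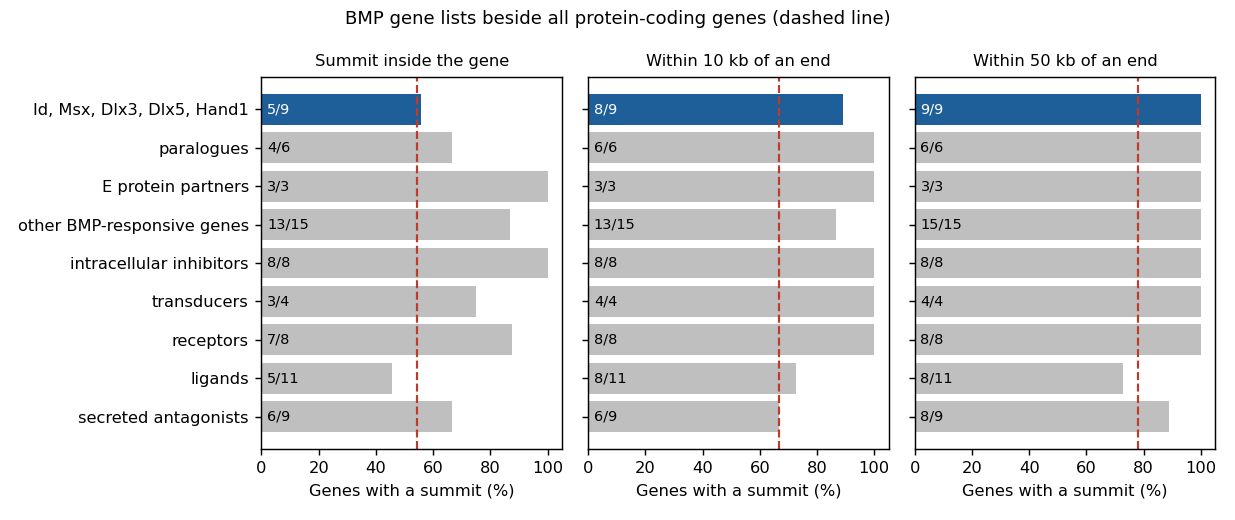
Percent of genes with a summit inside (left), within 10 kb (middle) and within 50 kb (right) of an end, for the 9 genes (blue) and each list of BMP pathway genes, paralogues and partners (grey), with counts in the bars. The dashed line is the share of all protein-coding genes, 54.5%, 66.6% and 78.0%; ligands stand at 5 of 11, 8 of 11 and 8 of 11.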

How the data were processed

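Anti-V5 ChIP and input libraries were sequenced from PGCLCs and ESCs. The submitters' processing notes name Bowtie (1.1.2), MACS2 (2.1.1.20160309) and HOMER (4.9.1) among others, and the build mm10, with no settings. Which libraries gave the peaks, how peaks were joined and the threshold are not given in the sources used here. The authors deposited 1 base position per summit and no score. Start equals end in all 32927 lines, so positions may be off by 1 base.

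Summits were set against RefSeq genes of GRCm38.p6 (Python 3.11.15, numpy 2.4.6, pandas 2.3.3, matplotlib 3.10.9). A summit counts within 10 or 50 kb of a gene when it lies that close to either end. Strands came from the RefSeq start windows. Counts and distances matched a direct calculation for 300 of 300 genes on simulated summits. Genes named are the 9, all paralogues and E proteins, and in each other list the 3 with the summit closest to an end and those with none within 50 kb; genes holding or nearest to a summit are named too. One gene that this rule names is not reported here. The planned rule took the smallest distance to a summit, with ties in alphabetical order, and distance to an end was used in its place. The 9 genes and all lists were chosen with earlier results of these data known.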

Additional observations from a re-analysis of the deposited data

How the results depend on the processing

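Of 33 alternative counts for the 9 genes, 25 stayed within 1.5 times of the reported count and 8 did not. All 3 alternative shares over all genes or windows lay outside the exact 95% binomial interval of the reported share. They cover other sets of genes or windows, and the reported shares are full counts. The interval therefore measures no spread here and does not decide how far the shares depend on processing. The number of the 9 genes with a summit within 10 kb was 8 with merged summits, with only summits nearest to the gene, with only summits over 1 kb from every protein-coding end, and in a window of 5 kb, 7 in 1 kb and 9 in 25 kb. The number with a summit inside went from 5 to 1 with only summits over 1 kb from every end. The gene left was Id4, with a summit 1075 bases past its start. The other inside summits lay 22 to 645 bases from an end of their gene. Under that setting the 26 summits within 10 kb became 16. Taking the start alone, which only 5 genes allow, gave 5 genes with a summit at 10 kb and 5 at 50 kb, with 17 and 29 summits. These counts are among the 8 that moved. The same 5 genes had 19 and 29 summits by either end, so the lower counts come mostly from leaving out the other genes. The 55 summits within 50 kb became 36 where the gene had to be the nearest, and 84 within 100 kb. In place of 66.6%, the share with a summit within 10 kb was 45.6% of all annotated genes and 59.1% of protein-coding genes in the length range of the 9. The CG-rich start windows were an alternative chosen after seeing the data. Stricter peak thresholds were not run, as the list has no score. No paired analysis was possible because the summits are not assigned to libraries.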
